A study of Homo sapiens with 36 samples.

Results

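The mitochondrial genome encodes 37 genes whose symbols begin with MT-, of which 13 code for proteins of the respiratory chain, 2 for ribosomal RNAs and 22 for transfer RNAs. The 35 mRNA and tRNA genes were taken by that symbol from 57500 gene IDs, and the 24 with a mean of at least 1 CPM (counts of a gene per 1e6 counts of the library) are described in full: the 13 mRNA genes and 11 of the tRNA genes. Another 11 tRNA genes fell under that level and are given at the end, and the small and large subunit rRNA genes were not analysed here. Counts came from polyA-selected RNA of OE33 and FLO1, 2 cell lines from human esophageal adenocarcinoma that had been stably transduced with short hairpin RNAs. The hairpins shAPE1#1 and shAPE1#3 are directed at APE1, the base excision repair endonuclease encoded by APEX1, which also works in mitochondria, and shControl is the control hairpin. For each line and hairpin, cells received a 20 min exposure to acidic bile salts (ABS, pH 4 and 200 µM) with 6 h in complete medium after it, or were left unexposed. The 12 groups were therefore, in each line, shAPE1#1 with ABS, shAPE1#1 unexposed, shAPE1#3 with ABS, shAPE1#3 unexposed, shControl with ABS and shControl unexposed. Each had 3 libraries, which the submitters call independent biological replicates. OE33 was grown in RPMI1640 and FLO1 in DMEM, so cell line and medium cannot be told apart. In bulk RNA, fewer mitochondrial genomes per cell and less RNA from each genome cannot be told apart either.

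Both strands of the mitochondrial genome are transcribed by the polymerase POLRMT into long RNAs that run through many genes. The tRNAs lie between most of the mRNAs and rRNAs, and RNase P and ELAC2 cut at the tRNA ends, which frees the transcripts on either side. Most of the freed mRNAs then receive a short polyA tail from MTPAP, while mature tRNAs carry a CCA end and no such tail. Selection on polyA therefore takes up mitochondrial mRNAs, whereas a tRNA count can come from a partial transcript, from an uncut precursor or from a tRNA tagged for decay. These sources were not told apart here, and a tRNA value below is the number of reads assigned to that gene, not an amount of mature tRNA. The products of the mRNAs sit in complex I (MT-ND1 to MT-ND6 with MT-ND4L), complex III (MT-CYB), complex IV (MT-CO1 to MT-CO3) and the ATP synthase, or complex V (MT-ATP6 and MT-ATP8).

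The tRNA genes that the results turn on are printed here, grouped by their place and strand relative to the rRNA and mRNA genes. MT-TF (phenylalanine, chrM:577-647), MT-TV (valine, chrM:1602-1670) and MT-TL1 (leucine, chrM:3230-3304) stand before, between and after the 2 rRNA genes on the plus strand. MT-TH (histidine, chrM:12138-12206) and MT-TL2 (leucine, chrM:12266-12336) follow MT-ND4 on the same strand. MT-TQ (glutamine, chrM:4329-4400), MT-TN (asparagine, chrM:5657-5729) and MT-TP (proline, chrM:15956-16023) are encoded on the minus strand. Coordinates are of GRCh38 and sequences are from the transcripts of GENCODE release 29, 5′ to 3′ in DNA letters, with the anticodon in capitals.
MT-TF: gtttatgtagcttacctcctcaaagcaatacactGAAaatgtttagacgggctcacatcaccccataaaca
MT-TV: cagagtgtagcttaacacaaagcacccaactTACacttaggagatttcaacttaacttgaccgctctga
MT-TL1: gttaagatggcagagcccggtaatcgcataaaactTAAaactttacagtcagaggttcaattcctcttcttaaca
MT-TH: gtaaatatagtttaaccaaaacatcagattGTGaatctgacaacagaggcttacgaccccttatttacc
MT-TL2: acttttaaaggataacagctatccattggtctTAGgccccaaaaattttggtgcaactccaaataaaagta
MT-TQ: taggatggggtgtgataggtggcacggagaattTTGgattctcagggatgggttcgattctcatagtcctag
MT-TN: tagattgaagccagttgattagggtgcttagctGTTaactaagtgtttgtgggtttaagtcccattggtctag
MT-TP: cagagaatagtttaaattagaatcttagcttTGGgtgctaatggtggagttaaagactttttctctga
The 11 analysed tRNA genes are 66 to 75 bases long in the annotation. The other 3 analysed tRNA genes, MT-TC (cysteine), MT-TY (tyrosine) and MT-TE (glutamate), are all on the minus strand. MT-ND6 is the only mRNA gene of the minus strand among the 13.

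The 36 libraries held 20650925 to 40654584 counts, and the 35 mitochondrial mRNA and tRNA genes took 2.87 to 4.07% of them, a share that covers no rRNA gene. APEX1 averaged 21.8 to 37.1 CPM in the 8 shAPE1 groups and 175 to 197 CPM in the 4 shControl groups, and it was lower in every shAPE1 library than in any shControl library. Of the epithelial markers, EPCAM averaged 553 CPM in OE33 and 0.824 CPM in FLO1, KRT19 10025 and 9.81 CPM, and CDH1 384 and 11.4 CPM. KRT8 averaged 6276 and 1926 CPM and KRT18 2277 and 1186 CPM. FLO1 was thus low in EPCAM, KRT19 and CDH1 but not in KRT8 or KRT18, all markers of its labelled epithelial cell type. PTPRC, which marks leukocytes, averaged at most 0.01 CPM in either line. Of the fibroblast, immune and endothelial markers looked at, those that averaged over 1 CPM in a line were COL1A1, CD68 and LYZ. COL1A1 averaged 4.21 CPM in OE33 and 24.1 CPM in FLO1, CD68 1.35 and 3.01 CPM, and LYZ 1.63 and 0.480 CPM. Nuclear copies of mitochondrial genes, with which members could share reads, summed to 197 to 378 CPM, nearly all of it from MTATP6P1 (a mean of 234 CPM) and MTCO1P12 (27.3 CPM). One library stood apart: FLO1 shControl ABS replicate 2 had the lowest value of all 36 libraries for 5 members, MT-ATP8, MT-ND3, MT-ND6, MT-TN and MT-TP. It also had the smallest share of nuclear counts in genes shorter than 600 bases among FLO1 libraries, 0.254% against 0.2795 to 0.3577% in the other 17. The tests of members for ABS in FLO1 shControl cells, and for the difference between lines in this response, are also given below without this library. For the hairpin differences in FLO1 only the count of calls without it is given. Class sums, shares and ratios below include it.

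Summed over their class, the 13 mRNA genes took 2.85 to 4.03% of the counts in any library, whereas the 22 tRNA genes ranged more widely, between 251 and 663 CPM. In OE33, mRNA genes held 3.12 ± 0.125% of counts in shAPE1#1 cells with ABS and 3.33 ± 0.254% without, 3.94 ± 0.112% in shAPE1#3 cells with ABS and 3.94 ± 0.103% without, and 3.67 ± 0.0422% in shControl cells with ABS and 3.31 ± 0.133% without (mean ± SD, n = 3 each). In FLO1 the shares in the same order were 3.55 ± 0.206%, 3.65 ± 0.149%, 3.44 ± 0.151%, 3.05 ± 0.0667%, 3.13 ± 0.246% and 3.13 ± 0.0721%. The highest group mean was that of OE33 shAPE1#3 unexposed and the lowest that of FLO1 shAPE1#3 unexposed. The 22 tRNA genes together gave 483 ± 63 CPM in FLO1 shAPE1#1 cells with ABS and 568 ± 28.1 CPM without, 372 ± 23.8 CPM in shAPE1#3 cells with ABS and 604 ± 52.2 CPM without, and 347 ± 86.4 CPM in shControl cells with ABS and 587 ± 27.4 CPM without. In OE33 the same sums were 394 ± 48.6, 449 ± 56, 412 ± 20.8, 458 ± 11.4, 302 ± 18.1 and 319.8 ± 13.4 CPM. No test was made of a class sum, since its members were chosen.

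**Figure D1:**
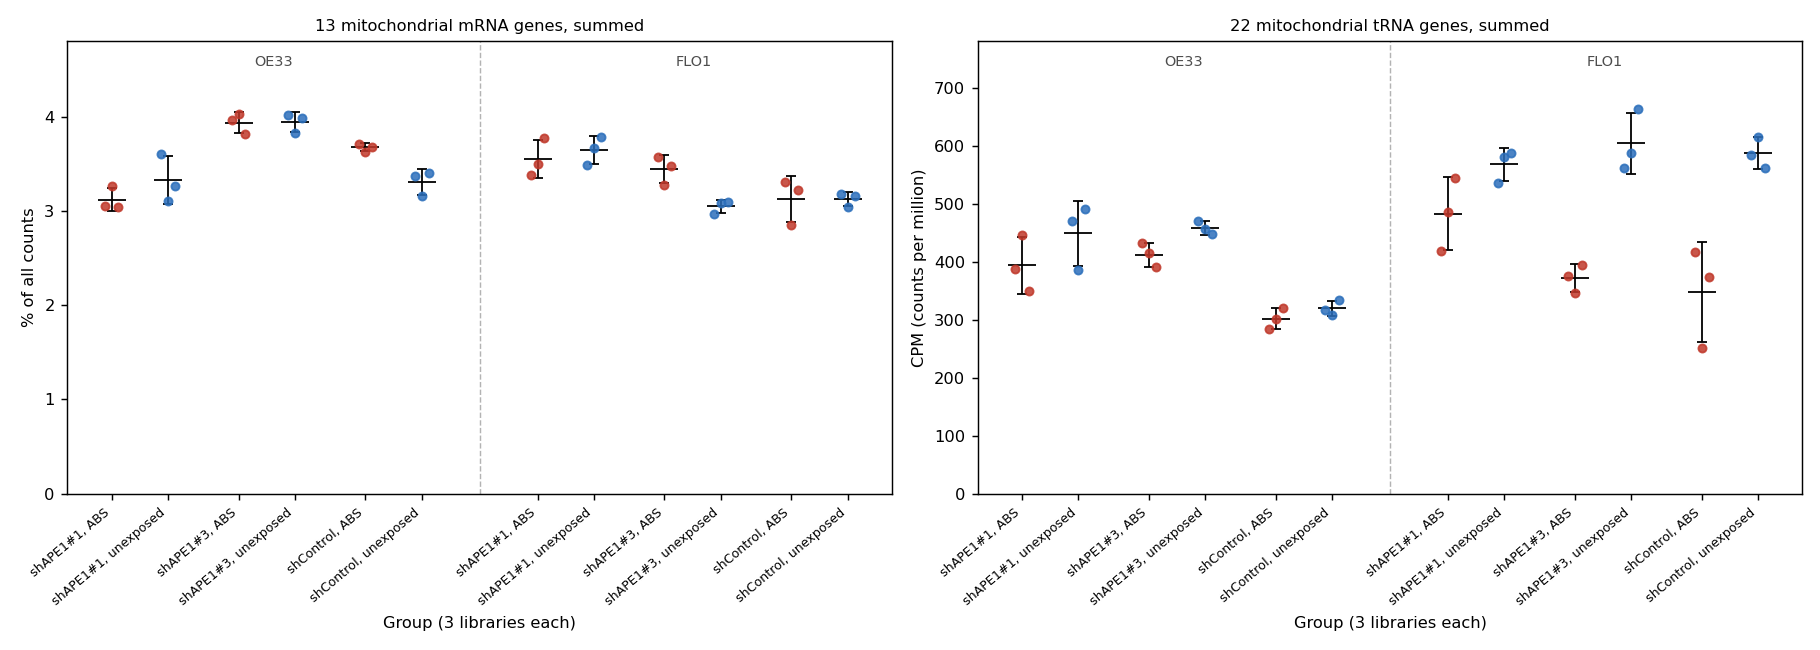
Share of all counts held by the 13 mitochondrial mRNA genes (left, %) and summed CPM of the 22 mitochondrial tRNA genes (right) in each library, with the group mean and SD (n = 3). The mRNA share stays between 2.85 and 4.03% in every library, while the tRNA sum of FLO1 cells is lower with ABS in shControl (251 to 418 CPM) than in unexposed shControl cells (561 to 616 CPM).

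The tRNA sum was divided differently in the 2 lines. MT-TF and MT-TV made up 34.1 ± 2.94% of tRNA counts in FLO1 shControl cells with ABS and 58.4 ± 2.26% in unexposed ones, but 18 ± 1.17% and 16.8 ± 0.528% in OE33 shControl cells with ABS and without. All other tRNA genes together gave 231 ± 65.3 CPM in FLO1 shControl cells with ABS and 245 ± 22.9 CPM in unexposed ones, ranges that overlapped. The ABS libraries had 281, 157 and 254 CPM, and the low value was that of replicate 2, the library that stood apart. MT-TN had the highest mean of the tRNA genes in 10 of the 12 groups, and MT-TF in the other 2, unexposed FLO1 cells of shAPE1#3 (MT-TF 196, MT-TV 181 and MT-TN 104 CPM) and of shControl (MT-TF 180, MT-TV 163 and MT-TN 112 CPM). Over all libraries MT-TN averaged 146 CPM, ahead of MT-TV (73.8 CPM), MT-TF (72.4 CPM), MT-TP (68.0 CPM) and MT-TL1 (40.6 CPM). The other 6 averaged 1.06 to 17.2 CPM, so their values rest on as few as 8 counts in a library.

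Per length, the mRNAs kept a steep order. In TPM (counts per annotated length, scaled to 1e6 per library) over all 36 libraries, the subunits of complex IV led: MT-CO2 averaged 26186 ± 2021 TPM (SD) and MT-CO1, its catalytic subunit, 23396 ± 4369 TPM. MT-CO2 was above MT-CO1 in 8 of 18 OE33 libraries and in 18 of 18 FLO1 libraries, so these neighbours separated in FLO1 and not in OE33. MT-CO1 was above the next gene, MT-ATP6 (15057 TPM), in 36 of 36. MT-CO3 (13872 TPM), MT-ND4L (12126 TPM) and MT-ATP8 (8048 TPM) followed, and then MT-ND4 (7776 TPM), MT-ND1 (6551 TPM), MT-ND2 (5400 TPM) and MT-CYB (5064 TPM). The lowest levels per length were those of 3 complex I genes, MT-ND5 (2963 TPM), MT-ND3 (2664 TPM) and MT-ND6 (2487 TPM). Since most but not all mitochondrial mRNAs are tailed, this order of polyA-selected counts may differ from that of the transcripts themselves. MT-CYB exceeded MT-ND5 in 36 of 36 libraries, while the remaining neighbours in this order changed places in 1 to 12 libraries. This order over all libraries is not that of each line, since MT-ND4 was above MT-ND1 in 18 of 18 OE33 libraries and in 6 of 18 FLO1 libraries. MT-ND4L and MT-ND4 overlap by 7 bases and lie on the same bicistronic mRNA, as do MT-ATP8 and MT-ATP6, which overlap by 46 bases. Per length, MT-ND4L was nonetheless at 1.17 to 1.86 times the level of MT-ND4, and MT-ATP8 at 0.139 to 0.761 times that of MT-ATP6.

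The MT-ATP8 count varied widely between replicates. Its ratio to the MT-ATP6 count ran from 0.0424 to 0.231 with a median of 0.161. MT-ATP8, a small subunit of the ATP synthase stator, had 499, 119 and 419 CPM in FLO1 shControl cells with ABS, against 266, 478 and 413 CPM in unexposed ones. In OE33 shAPE1#1 cells it had 552, 609 and 265 CPM with ABS, against 502, 209 and 608 CPM without. FLO1 shControl ABS replicate 2, OE33 shAPE1#1 ABS replicate 3 and OE33 shAPE1#1 unexposed replicate 2 lay far under their replicates, and the groups overlapped. In shAPE1#3 cells of OE33 the ratio stayed between 0.21 and 0.229 with ABS and between 0.22 and 0.229 without. The library lowest in MT-ATP8 was also the lowest of its group for MT-ND1 and MT-ND2 in 11 of 12 groups, and for MT-TN, MT-TV, MT-ND6 and MT-ATP6 in 10 of 12, but for MT-CO2 in 4, MT-TH in 2 and MT-TE in 2. Between these lay MT-TL1 and MT-ND4 with 9, MT-CO1 with 8, MT-ND4L and MT-ND5 with 7, and the remaining members with 3 to 6. With 3 libraries per group, unrelated genes would also share a lowest library in some groups, and the share over all genes is not given. This count of shared lowest libraries was chosen after its values were seen and has no test.

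**Figure D2:**
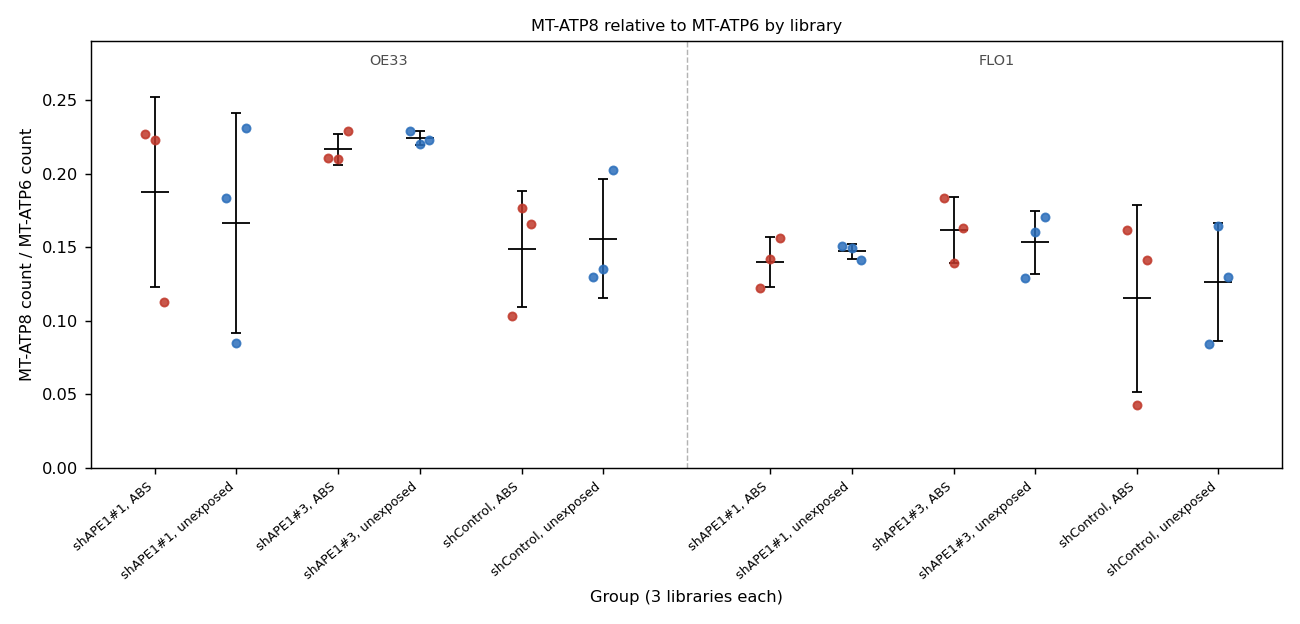
Count of MT-ATP8 divided by the count of MT-ATP6 in each library, with the group mean and SD (n = 3). Single libraries of OE33 shAPE1#1 and of FLO1 shControl with ABS lie far under their replicates, down to 0.0424, while the OE33 shAPE1#3 libraries stay between 0.21 and 0.229.

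Exposure of FLO1 shControl cells to ABS lowered 6 of the 24 members and raised none. Each gene was tested by the quasi-likelihood method of edgeR on raw counts, with p-values adjusted by Benjamini-Hochberg over the 16868 genes, and called at an adjusted p under 0.05. Of all genes 0.516% were called lower and 2.48% higher in this comparison. Of the 6 members 5 were tRNA genes, and all 5 plus-strand tRNA genes had negative changes, 4 of them called, with a median log2 change of -1.20, against a median of -0.0080 over all genes. Of the 6 minus-strand tRNA genes 1 was called, and their median was -0.13. Under the minimum level, the minus-strand genes MT-TS1 (-1.01) and MT-TA (-0.86) also had negative changes, which were not called. MT-TF, the first gene downstream of the heavy-strand promoter, had 59.7, 45.6 and 56.4 CPM with ABS, against 199, 178 and 163 CPM in unexposed cells. Every ABS library lay far below the lowest unexposed one, and the groups did not overlap. The log2 change of MT-TF was -1.79 ± 0.13, adjusted p = 4.37e-09, a 3.46-fold lower level. MT-TV, between the rRNA genes, had 76.5, 48.5 and 63.8 CPM with ABS, against 155, 167 and 167 CPM unexposed. These values did not overlap either, and the change was -1.42 ± 0.12, adjusted p = 8.92e-08. MT-TH, which follows MT-ND4, had 2.40, 2.25 and 3.13 CPM with ABS, against 7.63, 5.52 and 4.04 CPM unexposed, a change of -1.20 ± 0.22, adjusted p = 0.00236. MT-TQ had 3.75, 3.63 and 3.82 CPM with ABS, against 6.30, 6.38 and 6.89 CPM unexposed, a change of -0.86 ± 0.14, adjusted p = 0.000665. For both genes all 3 ABS libraries were below all 3 unexposed ones, with little spread among the ABS libraries of MT-TQ. Smaller changes were called for MT-TL1 (-0.46 ± 0.11, adjusted p = 0.0233) and for MT-ND2, a core subunit of complex I and the only mRNA called (-0.38 ± 0.10, adjusted p = 0.0419). Without ABS replicate 2, the library that stood apart, the changes were -1.71 for MT-TF, -1.29 for MT-TV, -1.14 for MT-TH, -0.86 for MT-TQ and -0.38 for MT-TL1, all still called, while MT-ND2 at -0.25 was not (adjusted p = 0.0724). The call of MT-ND2 was also lost without unexposed replicate 1, 2 or 3 or ABS replicate 3 (adjusted p up to 0.153), and that of MT-TL1 without unexposed replicate 1 or 2 or ABS replicate 3 (adjusted p up to 0.123). In a fit to these 6 libraries alone MT-TF, MT-TV and MT-TQ were called, and MT-TH was not (adjusted p = 0.123).

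**Figure D3:**
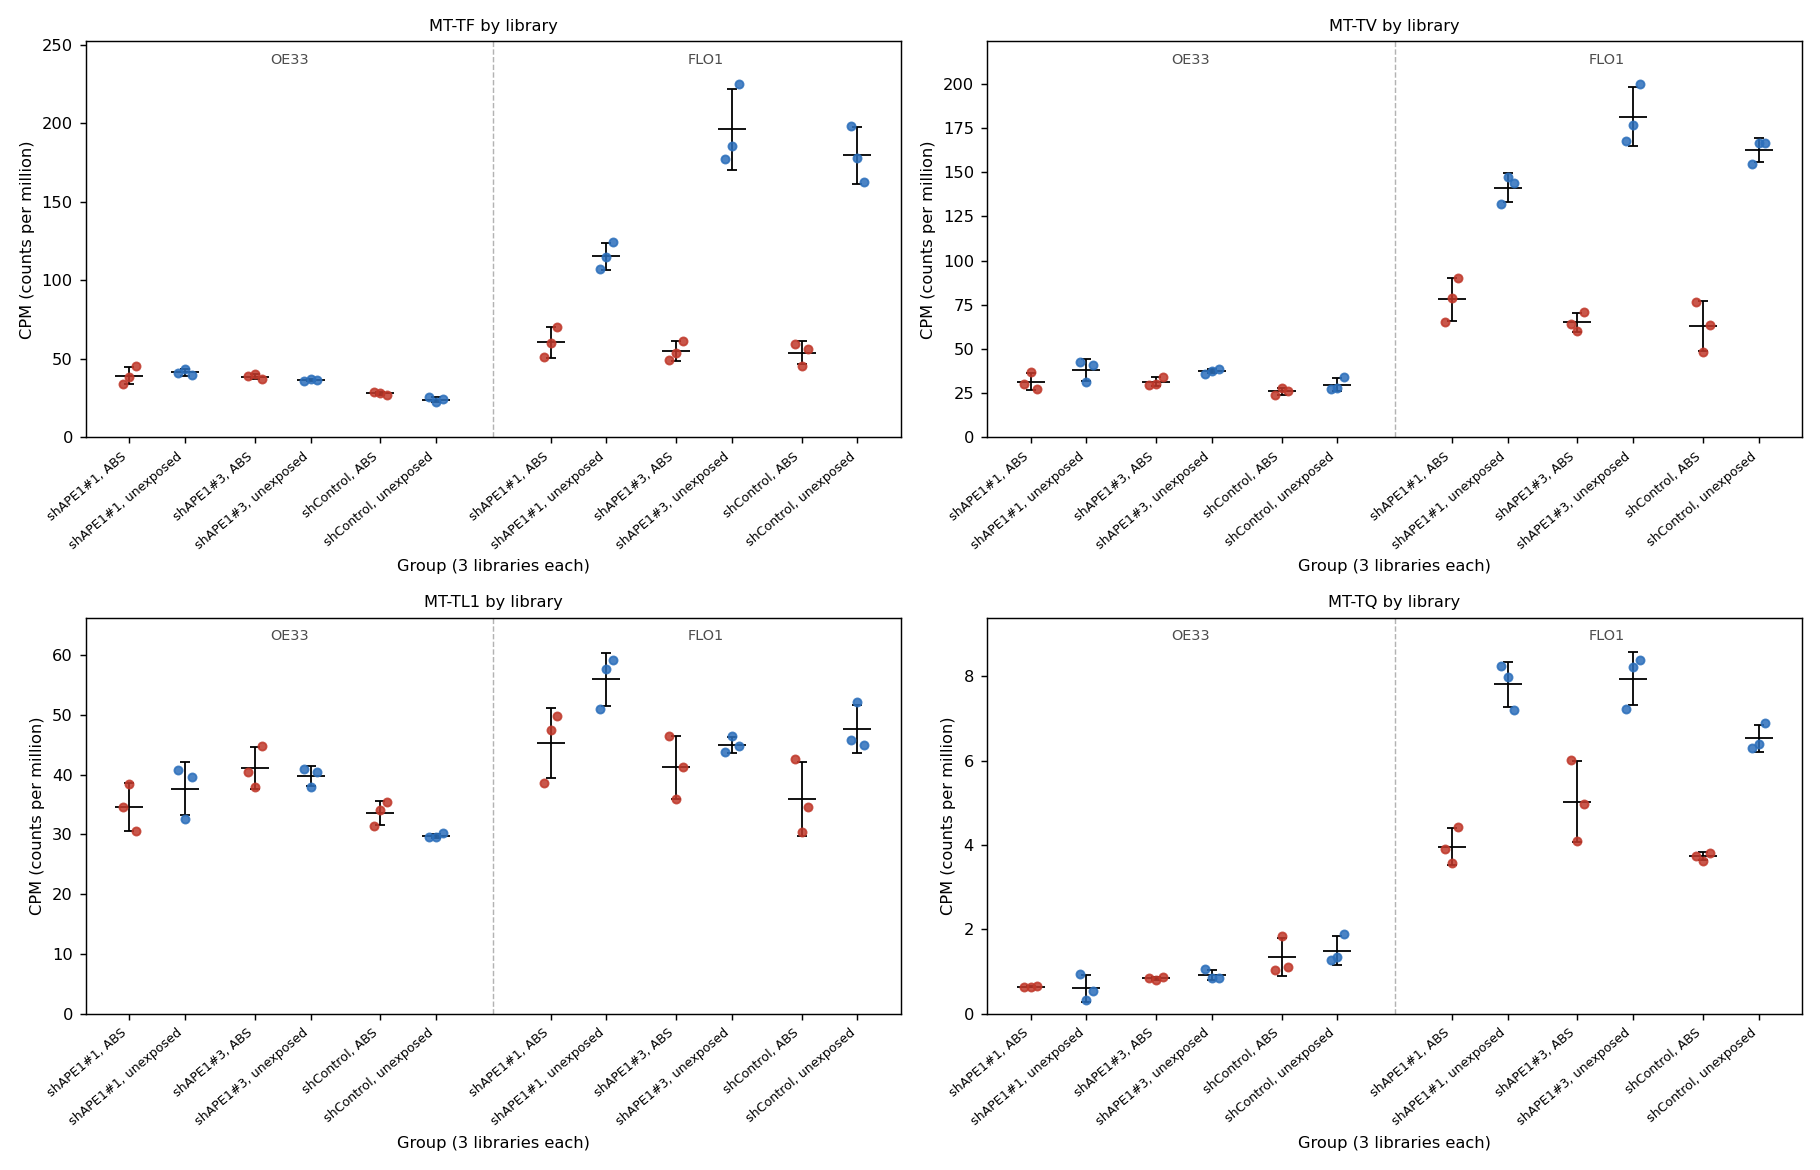
CPM of MT-TF, MT-TV, MT-TL1 and MT-TQ in each of the 36 libraries (red, ABS; blue, unexposed), with the group mean and SD (n = 3). In FLO1, unexposed libraries reach 225 CPM for MT-TF and 199.9 CPM for MT-TV and ABS libraries lie lower for all 3 hairpins, whereas in OE33 they reach at most 45.3 CPM and 42.5 CPM.

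MT-TF, MT-TV and MT-TQ were also called lower with ABS in FLO1 cells of both hairpins against APE1, comparisons that share no library with that in shControl cells. In shAPE1#1 cells 4 members were called lower and none higher, where 2.07% of all genes were called lower and 2.94% higher. MT-TF had 51, 60.1 and 70.4 CPM with ABS, against 107, 115 and 124 CPM unexposed (-0.95 ± 0.12, adjusted p = 3.29e-05). MT-TV had 65.5, 78.6 and 90.1 CPM with ABS, against 132, 147 and 144 CPM unexposed (-0.88 ± 0.12, adjusted p = 6.62e-05). MT-TQ had 3.90, 3.57 and 4.43 CPM with ABS, against 8.24, 7.98 and 7.20 CPM unexposed (-0.997 ± 0.13, adjusted p = 4.86e-05). The ABS libraries were below the unexposed ones without overlap for each. MT-TE had 0.89, 0.95 and 0.786 CPM with ABS, against 1.84, 1.68 and 1.94 CPM unexposed (-1.07 ± 0.29, adjusted p = 0.0364), but this call was lost on leaving out any 1 of the 6 libraries (adjusted p up to 0.119). MT-TE averaged 1.06 CPM over all libraries, just over the minimum of 1 CPM. Its high values in these unexposed cells helped it to pass, so the choice of members favoured a lower value with ABS here. In shAPE1#3 cells 5 members were called lower, where 0.285% of all genes were, and 1 was called higher, where 1.53% were. MT-TF had 49.1, 53.8 and 61.6 CPM with ABS, against 177, 186 and 225 CPM unexposed (-1.88 ± 0.13, adjusted p = 2.66e-09). MT-TV had 64, 60.4 and 70.8 CPM with ABS, against 168, 176 and 199.9 CPM unexposed (-1.52 ± 0.12, adjusted p = 3.94e-08). For both, the highest ABS library was far below the lowest unexposed one. MT-TH had 2.26, 2.39 and 2.22 CPM with ABS, against 5.51, 4.12 and 5.62 CPM unexposed (-1.19 ± 0.22, adjusted p = 0.00299), and MT-TL2 had 2.72, 2.42 and 2.55 CPM with ABS, against 5.07, 4.59 and 5.45 CPM unexposed (-1.01 ± 0.21, adjusted p = 0.0117). These 2 genes downstream of MT-ND4, which have MT-TS2 between them, were lower in every ABS library than in any unexposed one. MT-TQ changed by -0.70 ± 0.13, adjusted p = 0.00348. MT-ND4 was the member called higher, at 3503, 3157 and 3298 CPM with ABS, against 2482, 2556 and 2574 CPM unexposed (0.35 ± 0.08, adjusted p = 0.034). The call of MT-ND4 was lost without any 1 of the 6 libraries (adjusted p up to 0.148) and when libraries were scaled to mitochondrial mRNA, and that of MT-TL2 without unexposed replicate 1 or 3 or ABS replicate 2 or 3 (adjusted p up to 0.0686). Scaling to mitochondrial mRNA gave 1 higher and 4 lower in shAPE1#1 cells. In shAPE1#3 cells it moved the median of all genes by -0.13 and gave 0 higher and 5 lower. By strand, in the main test, 4 of 5 plus-strand tRNA genes (median -1.19) and 1 of 6 minus-strand ones (0.09) were called lower in shAPE1#3 cells. In shAPE1#1 cells the calls did not divide by strand, with 2 of 5 (median -0.48) and 2 of 6 (-0.09) called lower.

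No difference between hairpins in the ABS response of FLO1 passed the test for any member. The shAPE1#1 response minus the shControl response was 0.84 ± 0.17, adjusted p = 0.134 for MT-TF and 0.55 ± 0.17, adjusted p = 0.476 for MT-TV. For shAPE1#3 it was -0.09 ± 0.17, adjusted p = 1 for MT-TF and -0.09 ± 0.17, adjusted p = 1 for MT-TV. By edgeR's quasi-likelihood test no member was called in either comparison, where 0% of all genes were called, and 3 and 2 members had an unadjusted p under 0.05. DESeq2 called 1 member for shAPE1#1 and 0 for shAPE1#3. Without shControl ABS replicate 2, edgeR called 1 member for shAPE1#1. Scaling to mitochondrial mRNA, which moved the median of all genes by -0.19 for shAPE1#3, called no member there. Both differences use the same shControl libraries.

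In OE33 shControl cells ABS raised mRNAs and left the tRNA genes without a call. In all, 6 members were called higher and none lower, where 5.89% of all genes were called higher and 2.51% lower. With MT-CYB and MT-ATP6, 4 of the 7 complex I genes were among them. MT-ND4L, a membrane subunit of complex I, had 1141, 1137 and 1032 CPM with ABS, against 788, 799.6 and 862 CPM unexposed (0.46 ± 0.08, adjusted p = 0.000952). MT-ND2 had 1448, 1523 and 1571 CPM with ABS, against 1167, 1078 and 1279.7 CPM unexposed (0.39 ± 0.08, adjusted p = 0.0016). MT-CYB, the cytochrome b of complex III, had 2048, 1912 and 1923 CPM with ABS, against 1564, 1531 and 1589 CPM unexposed (0.35 ± 0.06, adjusted p = 0.000615). For these 3 genes each ABS library was above each unexposed library. MT-ND4, another membrane subunit, had 3313, 3151 and 3287 CPM with ABS, against 2650.1, 2462 and 2732 CPM unexposed (0.34 ± 0.06, adjusted p = 0.00103). MT-ND1 changed by 0.33 ± 0.06, adjusted p = 0.00103, and MT-ATP6, a proton channel subunit, by 0.20 ± 0.06, adjusted p = 0.046. The 3 complex IV genes had changes of 0.09 (MT-CO1), 0.14 (MT-CO2) and 0.12 (MT-CO3) that were not called. MT-TF, lower with ABS in FLO1, had 29, 28.3 and 27 CPM with ABS in OE33, against 25.7, 22.4 and 24.2 CPM unexposed, with no call (0.24 ± 0.09, adjusted p = 0.102). Among the 11 tRNA genes edgeR's quasi-likelihood test called 0 and 2 had an unadjusted p under 0.05, and DESeq2 called the same 6 members and no tRNA gene. The call of MT-ATP6 was lost without any 1 of the 6 libraries (adjusted p up to 0.241). When libraries were scaled to mitochondrial mRNA, which moved the median of all genes by -0.17, the split became 1 higher and 3 lower, and MT-ND4L alone stayed called among these 6 (0.28).

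**Figure D4:**
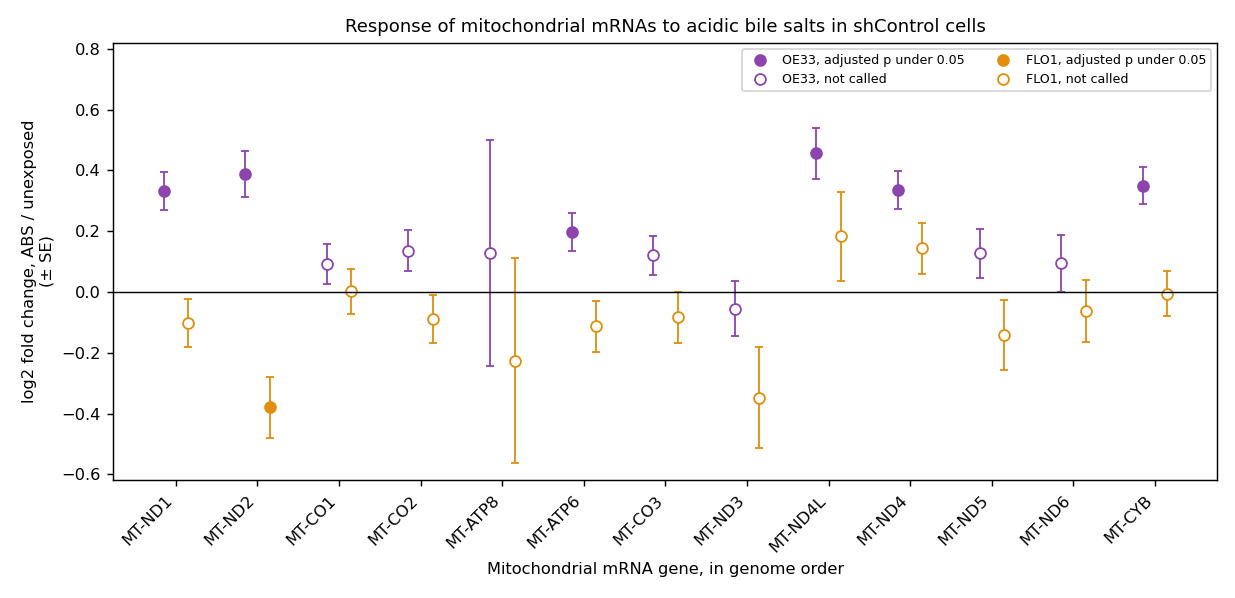
Log2 change with ABS (± SE) of each mitochondrial mRNA in shControl cells of OE33 and FLO1, with filled points where the adjusted p was under 0.05. In OE33, 6 genes are called higher, MT-ND4L furthest at 0.46, while in FLO1 MT-ND2 alone is called, at -0.38.

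With the hairpins against APE1, few members responded to ABS in OE33. In shAPE1#1 cells 3 were called lower, and none higher, where 1.71% of all genes were called lower and 3.02% higher. MT-TH had 0.669, 2.02 and 1.39 CPM with ABS, against 4.05, 3.89 and 2.03 CPM unexposed (-1.31 ± 0.28, adjusted p = 0.00799), with the nearest libraries of the groups almost equal and a call that was lost without ABS replicate 1 (adjusted p = 0.054). MT-TP had 103, 108 and 91.9 CPM with ABS, against 122, 111 and 127 CPM unexposed (-0.27 ± 0.07, adjusted p = 0.0219). MT-CO1 had 9777, 10398 and 9862 CPM with ABS, against 12959, 10717 and 11129.7 CPM unexposed (-0.23 ± 0.07, adjusted p = 0.0411), with ABS replicates close to each other and under all unexposed ones. The call of MT-TP was lost without unexposed replicate 1 or 3 or ABS replicate 3 (adjusted p up to 0.129). That of MT-CO1 was lost without any 1 library other than unexposed replicate 2, and its change was -0.14 without unexposed replicate 1 (adjusted p = 0.266). The count of members called was 1 without unexposed replicate 1 or ABS replicate 1 or 3, 5 without ABS replicate 2, and 0 in a fit to the 6 libraries alone. Scaled to mitochondrial mRNA, which moved the median of all genes by 0.11, 1 member was higher and 1 lower. In shAPE1#3 cells 1 member was called higher and 1 lower, where 1.76% and 0.502% of all genes were. MT-ND4 had 4205, 4343 and 4353 CPM with ABS, against 3756, 3424 and 3666 CPM unexposed (0.25 ± 0.06, adjusted p = 0.0293). MT-TP had 105, 104 and 94.8 CPM with ABS, against 129.9, 123 and 122 CPM unexposed (-0.30 ± 0.07, adjusted p = 0.0148). Both separated the groups by library. The call of MT-ND4 was lost without any 1 library (adjusted p up to 0.189) and that of MT-TP without unexposed replicate 1 or 2 or ABS replicate 3 (adjusted p up to 0.131), so that 0 members were called without unexposed replicate 1 or 2 or ABS replicate 3, and 1 without any other library. Scaled to mitochondrial mRNA, 0 members were higher and 1 lower.

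All 13 mRNAs had a lower response to ABS with either hairpin than with shControl in OE33, but no single difference passed the test. Scaling to mitochondrial mRNA left 5 of the 13 negative with shAPE1#1 and 8 with shAPE1#3. It divides by the sum of these same 13 genes, which removes a shared shift by construction, so it cannot decide whether they share one. The response with shAPE1#1 minus that with shControl ran from -0.45 (MT-ND4L) to -0.04 (MT-ATP8), with a median of -0.28, and 9 of the 13 had an unadjusted p under 0.05. With shAPE1#3 it ran from -0.24 to -0.08, with a median of -0.21, and 5 of the 13 did. The share of all genes under that unadjusted level is not given, so these counts have no background to be read against. Medians over all genes were -0.0061 and -0.0023, and that scaling moved them by 0.28 and 0.17. MT-CYB differed by -0.35 ± 0.09, adjusted p = 0.611 with shAPE1#1 and by -0.22 ± 0.09, adjusted p = 0.999 with shAPE1#3. No member was called by edgeR's quasi-likelihood test in either comparison, where 0% of all genes were called with shAPE1#1, and 0.0129% higher and 0% lower with shAPE1#3, and DESeq2 called 1 and 0. Both comparisons share the shControl libraries of OE33, with ABS and without, so the agreement of their signs is no independent evidence.

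The response to ABS differed between the lines for 6 members, all with a higher value in OE33. This was tested as the OE33 response minus the FLO1 response in shControl cells, in 1 fit to all 36 libraries, where 0.764% of all genes were called higher and 0.967% lower. The difference was 2.03 ± 0.16, adjusted p = 1.13e-11 for MT-TF and 1.25 ± 0.16, adjusted p = 4.54e-06 for MT-TV. For MT-TL1 it was 0.65 ± 0.14, adjusted p = 0.00825. Among mRNAs MT-ND2 differed most (0.76 ± 0.13, adjusted p = 0.000333), being called higher with ABS in OE33 and lower in FLO1. MT-ND1 differed by 0.43 ± 0.10, adjusted p = 0.0114 and MT-CYB by 0.35 ± 0.09, adjusted p = 0.0432. Without FLO1 shControl ABS replicate 2 the 6 differences were 1.97 for MT-TF, 1.14 for MT-TV, 0.59 for MT-TL1, 0.66 for MT-ND2, 0.45 for MT-ND1 and 0.35 for MT-CYB, all called. The call of MT-CYB was lost without any of 9 of the 12 libraries, namely all 6 of OE33, FLO1 unexposed replicate 1 or 3 and FLO1 ABS replicate 3 (adjusted p up to 0.156). Scaling to mitochondrial mRNA, which moved the median of all genes by -0.21, and a fit to the 12 libraries alone, each left 3 of the 6 called, MT-TF, MT-TV and MT-ND2.

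MT-TF and MT-TV differed between unexposed shControl cells of the lines as well. Of the 24 members 5 were higher and 8 lower in OE33 than in FLO1, in a comparison where 37.6% of all genes were called higher and 39.9% lower. Over all libraries of a line, MT-TQ averaged 5.83 CPM in FLO1 and 0.972 CPM in OE33, and MT-TE 1.45 and 0.668 CPM. Both passed the minimum mean of 1 CPM only through FLO1, so the choice of members favoured their lower value in OE33. MT-TF had 25.7, 22.4 and 24.2 CPM in OE33, against 199, 178 and 163 CPM in FLO1, a 6.81-fold lower level (-2.77 ± 0.11, adjusted p = 1.48e-22). MT-TV had 27.3, 28 and 33.9 CPM in OE33, against 155, 167 and 167 CPM in FLO1 (-2.32 ± 0.12, adjusted p = 1.4e-19). MT-TQ had 1.26, 1.34 and 1.89 CPM in OE33, against 6.30, 6.38 and 6.89 CPM in FLO1 (-1.99 ± 0.19, adjusted p = 7.13e-12). The lines were far apart for all 3, and the FLO1 values with ABS still lay above every unexposed OE33 value. MT-TP went the other way, with 74.7, 70.2 and 73.6 CPM in OE33, against 39.5, 41.5 and 33.7 CPM in FLO1 (1.06 ± 0.10, adjusted p = 3.15e-12). Lower in OE33 were also MT-TE (-1.05 ± 0.31), MT-ND1 (-0.87 ± 0.07), MT-TY (-0.70 ± 0.15), MT-TL1 (-0.55 ± 0.10) and MT-ND2 (-0.51 ± 0.09). Higher were MT-CO1 (0.73 ± 0.07), MT-TC (0.48 ± 0.11), MT-CO2 (0.28 ± 0.07) and MT-ND6 (0.27 ± 0.10). MT-ND1 was thus lower and MT-CO1 higher in OE33, and so they were under scaling to mitochondrial mRNA (-1.08 for MT-ND1 and 0.52 for MT-CO1), while both genes lie on the same strand. The call of MT-ND6 was lost without FLO1 replicate 1 or OE33 replicate 3 (adjusted p up to 0.105) and that of MT-TE without FLO1 replicate 1 (adjusted p = 0.056). Scaling to mitochondrial mRNA, which moved the median of all genes by -0.21, gave 3 higher and 12 lower.

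Knockdown of APE1 without ABS was set against shControl in each line, and in OE33 shAPE1#3 raised most members. Of the 24 members 17 were called higher and none lower, which is 70.8% of the members where 11.2% of all genes were called higher and 10.5% lower. All 7 complex I genes were among them. MT-TP had 129.9, 123 and 122 CPM in shAPE1#3 cells, against 74.7, 70.2 and 73.6 CPM in shControl cells (0.80 ± 0.07, adjusted p = 4.33e-09). MT-TY had 6.92, 6.62 and 7.59 CPM in shAPE1#3 cells, against 4.68, 4.94 and 3.81 CPM in shControl cells (0.67 ± 0.15, adjusted p = 0.00185). MT-ND6, the complex I gene of the minus strand, had 561, 514 and 507 CPM in shAPE1#3 cells, against 336, 316 and 378 CPM in shControl cells (0.64 ± 0.09, adjusted p = 2.01e-05). In all 3 the knockdown libraries were higher without overlap. Of the 24 members 22 did not overlap between these groups, so a lack of overlap was more common than a call. MT-TF had 36, 37.3 and 36.8 CPM in shAPE1#3 cells, against 25.7, 22.4 and 24.2 CPM in shControl cells (0.63 ± 0.09, adjusted p = 1.64e-05). MT-ND1 had 1596, 1566 and 1626 CPM in shAPE1#3 cells, against 1047, 997 and 1105 CPM in shControl cells (0.63 ± 0.06, adjusted p = 4.79e-08). Neither gene overlapped between the groups. The other complex I genes rose by 0.57 (MT-ND2), 0.49 (MT-ND4), 0.40 (MT-ND4L), 0.38 (MT-ND5) and 0.28 (MT-ND3). MT-ATP6 (0.31), MT-CYB (0.31) and MT-CO1 (0.20) were called as well, while MT-CO2 (0.10), MT-CO3 (0.12) and MT-ATP8 (0.83 ± 0.37, adjusted p = 0.145) were not. Among tRNA genes MT-TN (0.54), MT-TL1 (0.44), MT-TV (0.35) and MT-TC (0.35) rose, and MT-TQ, MT-TH, MT-TL2 and MT-TE had negative changes from -0.69 to -0.12 that were not called.

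These calls were relative to all genes. Scaled to mitochondrial mRNA, which moved the median of all genes by -0.27 in this comparison, 7 members were called higher and 3 lower. Here too a rise shared by the 13 mRNAs is removed by construction. MT-TP (0.53), MT-TY (0.40), MT-ND6 (0.37), MT-TF (0.36), MT-ND1 (0.35), MT-ND2 (0.29) and MT-ND4 (0.21) stayed higher, and MT-CO1 stood at -0.07 with no call. Leaving out 1 library gave 13 to 16 calls. The calls lost were those of MT-CO1 without any library other than shControl replicate 1, MT-TC without shControl or shAPE1#3 replicate 2 or 3, MT-TV without shControl replicate 1 or 2 or shAPE1#3 replicate 3, and MT-ND3 without shControl replicate 2 or shAPE1#3 replicate 1 or 2 (adjusted p up to 0.131).

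The other hairpin raised fewer members in OE33, mostly tRNA genes. With shAPE1#1, 7 were called higher and 1 lower, where 8.24% and 8.13% of all genes were, and both hairpins were set against the same shControl libraries. MT-TQ had 0.952, 0.325 and 0.543 CPM in shAPE1#1 cells, against 1.26, 1.34 and 1.89 CPM in shControl cells (-1.27 ± 0.32, adjusted p = 0.00659). MT-TF had 40.8, 43.7 and 39.7 CPM in shAPE1#1 cells, against 25.7, 22.4 and 24.2 CPM in shControl cells (0.78 ± 0.09, adjusted p = 5.61e-07). MT-TP had 122, 111 and 127 CPM in shAPE1#1 cells, against 74.7, 70.2 and 73.6 CPM in shControl cells (0.72 ± 0.07, adjusted p = 2.51e-08). None of these 3 overlapped between groups. MT-TN had 181, 128 and 209 CPM in shAPE1#1 cells, against 121, 119 and 134 CPM in shControl cells (0.47 ± 0.15, adjusted p = 0.0326), with shAPE1#1 replicate 2 inside the shControl range. MT-ND1 was the mRNA called (0.41 ± 0.06, adjusted p = 2.99e-05), and MT-TV (0.36 ± 0.11), MT-TC (0.35 ± 0.11) and MT-TL1 (0.34 ± 0.09) were called too. The count was 5 without shControl replicate 2, shAPE1#1 replicate 1 or shAPE1#1 replicate 3. The calls of MT-TV and MT-TN were lost without shControl replicate 1 or 2 or shAPE1#1 replicate 1 or 3, that of MT-TC without replicate 2 or 3 of shControl or replicate 1 or 3 of shAPE1#1, and that of MT-TL1 without shAPE1#1 replicate 1 (adjusted p up to 0.165).

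In FLO1 fewer members were called. With shAPE1#1, 3 members were called higher and 2 lower, where 4.52% and 2.22% of all genes were. MT-TF had 107, 115 and 124 CPM in shAPE1#1 cells, against 199, 178 and 163 CPM in shControl cells (-0.65 ± 0.12, adjusted p = 0.00173). MT-TH had 3.53, 3.35 and 2.89 CPM in shAPE1#1 cells, against 7.63, 5.52 and 4.04 CPM in shControl cells (-0.82 ± 0.21, adjusted p = 0.0191). MT-TF, called higher in OE33 with this hairpin, was thus called lower in FLO1, and the groups did not overlap in either line. The difference between the lines was not tested. MT-TC had 16.5, 18 and 18.9 CPM in shAPE1#1 cells, against 13.4, 13.2 and 12.8 CPM in shControl cells (0.43 ± 0.11, adjusted p = 0.0176). MT-ND1 had 2468, 2638 and 2742 CPM in shAPE1#1 cells, against 1984, 2110.3 and 2187 CPM in shControl cells (0.31 ± 0.08, adjusted p = 0.0153). Both, with MT-CO1 (0.29 ± 0.07, adjusted p = 0.0209), were higher in each knockdown library than in each control. Of the 24 members 17 did not overlap between these groups, where 5 were called. Scaling to mitochondrial mRNA, which moved the median of all genes by -0.22, gave 0 higher and 4 lower. The call of MT-TF held without any 1 library, but 3 members were called without shControl replicate 1, 2 without shControl replicate 2, and 1 without shAPE1#1 replicate 2 or 3, and a fit to the 6 libraries alone gave 13. The calls were lost of MT-ND1 without shControl replicate 1 or 2 or shAPE1#1 replicate 2 or 3, of MT-CO1 without shControl replicate 2 or shAPE1#1 replicate 2 or 3, of MT-TC without replicate 2 or 3 of either hairpin, and of MT-TH without shControl replicate 1 or shAPE1#1 replicate 2 or 3 (adjusted p up to 0.161). With shAPE1#3 no member was called by edgeR's quasi-likelihood test or DESeq2, where 0.166% of all genes were called higher and 0.622% lower, and 1 member had an unadjusted p under 0.05. MT-TF had 177, 186 and 225 CPM in FLO1 shAPE1#3 cells, against 199, 178 and 163 CPM in shControl cells, ranges that overlapped (0.11 ± 0.12, adjusted p = 0.879).

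**Figure D5:**
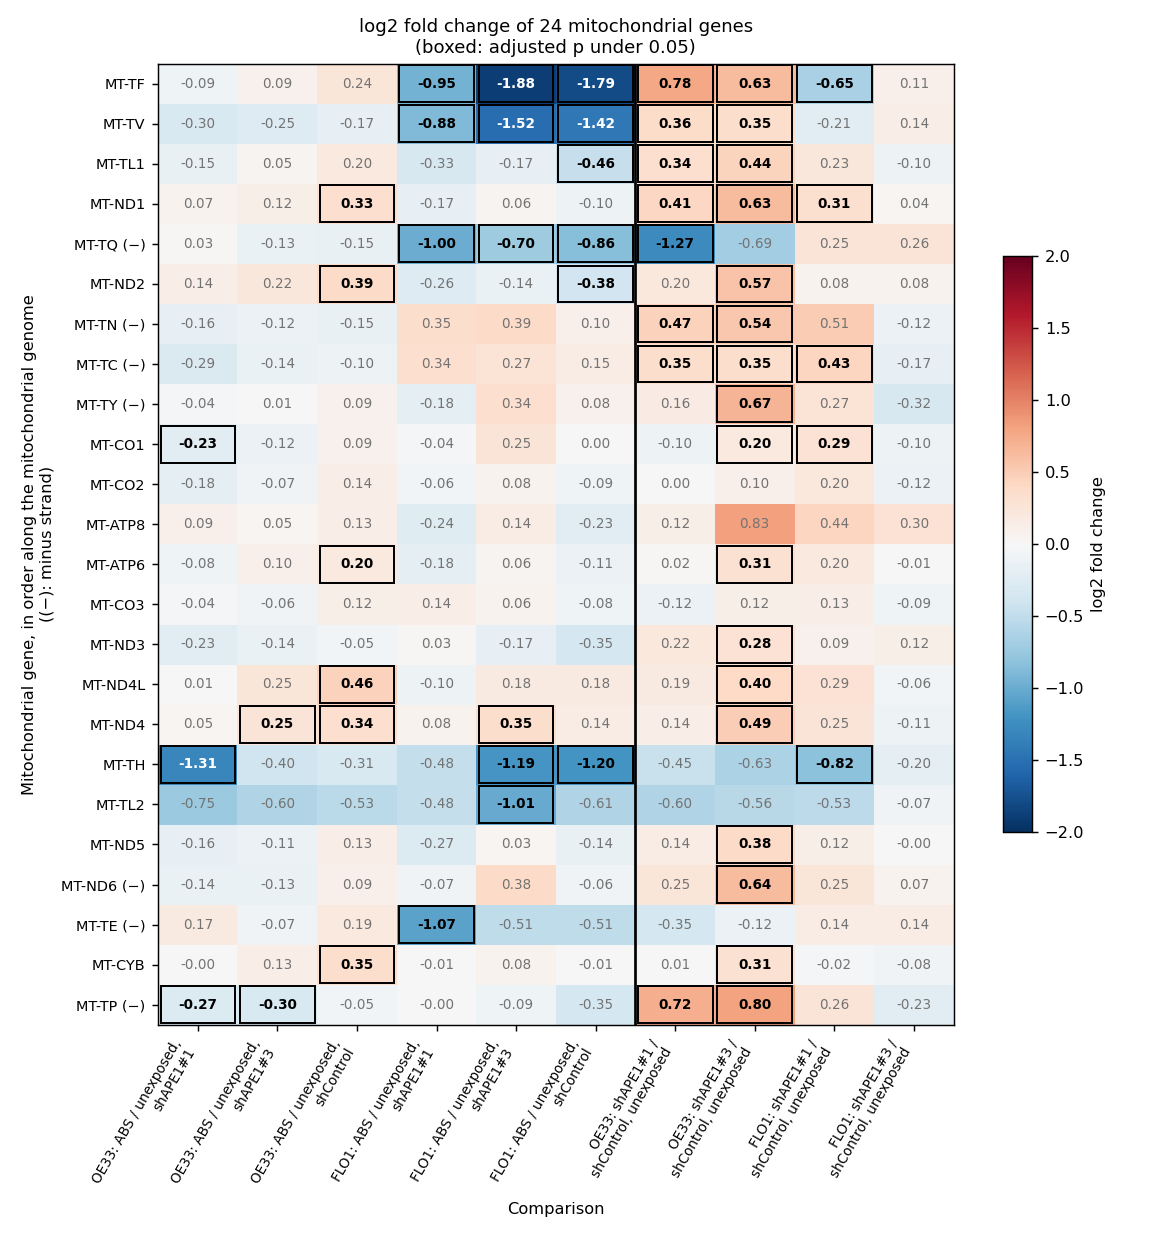
Log2 change of the 24 members (rows, in genome order, minus-strand genes marked) in 10 comparisons (columns), each with its value, boxed where the adjusted p was under 0.05. In the FLO1 columns for ABS, MT-TF, MT-TV and MT-TQ are boxed and negative with all 3 hairpins, and in the column for OE33 shAPE1#3 against shControl 17 members are boxed and positive.

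Among nuclear genes that transcribe, cut, stabilise or copy the mitochondrial genome, ABS gave calls in 3 of 6 comparisons by edgeR and in 5 of 6 by DESeq2. The 4 lists held 11 genes of mitochondrial transcription, 20 of RNA cleavage and tRNA maturation, 15 of RNA stability and decay and 16 of DNA replication and maintenance, with TFB1M in 2 of them. In FLO1 shControl cells with ABS, edgeR's quasi-likelihood test called 0 of these 61 genes, where 2.48% of all genes were called higher and 0.516% lower, 4 had an unadjusted p under 0.05 and DESeq2 called 1. The most abundant of the transcription list had changes of 0.19 ± 0.15 (POLRMT, the polymerase) and 0.01 ± 0.10 (TOP1MT, a topoisomerase). Those of the cleavage list had changes of -0.04 ± 0.09 (ELAC2, which cuts tRNA 3′ ends) and -0.14 ± 0.12 (HSD17B10, a subunit of RNase P). LRPPRC, which stabilises mitochondrial mRNAs, stood at -0.20 ± 0.11, TBRG4 at 0.12 ± 0.10, UNG at -0.13 ± 0.08 and POLG, the replicative polymerase, at 0.04 ± 0.11. In OE33 shControl cells with ABS, 1.64% of the list genes were called higher and 3.28% lower, where 5.89% and 2.51% of all genes were, shares near the background. UNG, a uracil glycosylase, fell (-0.45 ± 0.07, adjusted p = 9.95e-05), as did MRPL12 (-0.36 ± 0.09), which has been described as binding POLRMT, and the helicase TWNK rose (0.27 ± 0.07). In shAPE1#1 cells with ABS 1 list gene was called in each line, 1.64% where 2.94% of all genes were called higher in FLO1 and 1.71% lower in OE33. The polyA polymerase MTPAP rose in FLO1 (0.44 ± 0.12) and the ribonuclease PNPT1 fell in OE33 (-0.28 ± 0.08). Of these 5 calls that of UNG alone held without any 1 library, the others being lost without 3 to 6 of the 6 libraries compared. With ABS in shAPE1#3 cells, edgeR called 0 of the lists' genes in both lines, 6 in FLO1 and 9 in OE33 had an unadjusted p under 0.05, and DESeq2 called 0 and 2.

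With knockdown in OE33 the lists were near or under the background. With shAPE1#1, 11.5% of the 61 genes were called higher and 1.64% lower, where 8.24% and 8.13% of all genes were, and with shAPE1#3 11.5% were called higher and 4.92% lower, where 11.2% and 10.5% were. Of the 11 transcription genes 2 were higher with each hairpin, against the same shControl libraries. TOP1MT changed by 0.41 ± 0.08 with shAPE1#1 and by 0.35 ± 0.08 with shAPE1#3. POLRMT changed by 0.30 ± 0.09 with shAPE1#1 and by 0.27 ± 0.09 with shAPE1#3. Of the 20 genes of RNA cleavage and tRNA maturation ELAC2 was called with shAPE1#3 (0.25 ± 0.07, adjusted p = 0.00828) and none with shAPE1#1. Of the 15 RNA stability genes, LRPPRC (0.26 ± 0.07) and TBRG4 (0.22 ± 0.08) rose and FASTKD1 (-0.47 ± 0.10), which acts on mitochondrial mRNAs, fell with shAPE1#1. With shAPE1#3, LRPPRC rose (0.29 ± 0.07) and FASTK (-0.34 ± 0.12) and FASTKD1 (-0.35 ± 0.10) fell. Of the 16 DNA maintenance genes, POLG (0.27 ± 0.07), the ligase LIG3 (0.21 ± 0.07) and the nuclease EXOG (0.38 ± 0.13) rose with shAPE1#1. With shAPE1#3, POLG (0.22 ± 0.07), LIG3 (0.21 ± 0.07) and the glycosylase OGG1 (0.30 ± 0.11) rose and MUTYH, another repair glycosylase, fell (-0.46 ± 0.11). The calls that held without any 1 library were those of TOP1MT and FASTKD1 with shAPE1#1, and of TOP1MT, ELAC2, LRPPRC and MUTYH with shAPE1#3. Scaled to mitochondrial mRNA, with shAPE1#3 POLRMT stood at -0.0043, ELAC2 at -0.02, LRPPRC at 0.02 and TOP1MT at 0.08, none called, and MUTYH at -0.73. In FLO1, TOP1MT (-0.38 ± 0.10) and the rRNA methyltransferase MRM2 (-0.30 ± 0.08) fell with shAPE1#1, 3.28% of the list genes where 2.22% of all genes were called lower, and these calls were lost without 5 and 6 of the 6 libraries. With shAPE1#3 in FLO1, edgeR called 0 genes of the lists, 2 had an unadjusted p under 0.05 and DESeq2 called 0. The part of these genes in the changes of the members was not tested.

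The 11 tRNA genes under the minimum averaged 0.0832 to 0.906 CPM and reached at most 2.14 CPM in a library. Of them 9 could be tested in at least 1 comparison. MT-TM (methionine), next to MT-TQ, was called lower with ABS in FLO1 shAPE1#1 cells (-1.05 ± 0.29, adjusted p = 0.0405) and shAPE1#3 cells (-1.36 ± 0.30, adjusted p = 0.0168). In shControl cells its change was -1.14 ± 0.32 with no call (adjusted p = 0.0608), and the groups did not overlap with any of the 3 hairpins. MT-TI (isoleucine), which lies just before MT-TQ on the plus strand, was lower in unexposed OE33 than in FLO1 shControl cells (-2.97 ± 0.34), as was MT-TM (-2.46 ± 0.55). These tests were not repeated under other settings. The strand setting of the counting is not given in the sources used here, so reads from the opposite strand at the same place cannot be told apart for any of these genes.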

How the data were processed

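RNA of 36 libraries from OE33 and FLO1 cells, 12 groups of 3, was selected with oligo(dT) and sequenced, per the labels. The authors deposited 1 table of raw read counts per Ensembl gene. Per the submitters' processing notes, Trimmomatic 0.36, STAR 2.5.2b and featureCounts of Subread 1.5.2 were used with GRCh38. For the strand setting, multi-mapping reads and annotation release the sources used here say nothing. Reads that also match nuclear copies, or a neighbour in an overlap, may therefore be lost or shared.

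From the counts, CPM (per 1e6 of all counts) and TPM (per exon length of GENCODE release 29) were computed. Genes were filtered with filterByExpr, scaled by TMM and tested with edgeR 4.0.16 (quasi-likelihood test, robust, R 4.3.3), with 1 coefficient per group. The 18 libraries of a line shared a fit, and all 36 shared that for differences between lines. P-values were adjusted by Benjamini-Hochberg over all genes tested, and called under 0.05. For counts at an unadjusted p under 0.05, and for groups that did not overlap, the share of all genes is not given. SE is the change divided by the square root of F. The scripts were tested on simulated data. DESeq2 1.42.0, other scalings, no filter, a fit to the compared groups alone, a replicate block and leaving out each library were the alternatives.

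The members and the nuclear gene lists were chosen with earlier results of these data known. Every member called is named, with values by library for the 4 with the largest change in a comparison. Of each nuclear list up to 4 called genes are named for ABS and for knockdown. The 2 most abundant genes per list are named only for ABS in FLO1 shControl cells, where none was called. Genes of the lists are not named for unexposed shControl cells of OE33 against FLO1. There 42.6% of them were called higher and 34.4% lower, where 37.6% and 39.9% of all genes were. Same-numbered libraries did not deviate together (r from -0.288 to 0.0947 in FLO1 and from -0.198 to 0.0869 in OE33), so numbers were not treated as pairs. Replicates are labelled as independent biological replicates. P-values measure a change against the spread between replicates, as estimated over all groups of a fit and not only the groups compared. No replicate pair agreed within sampling noise (chi-square per degree of freedom of 2.47 to 77.7). Rows with no gene symbol (602, 0.0183% of counts) stayed in library sizes. Intervals are not given for CPM values, and a count is subject to counting error besides the replicate spread.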

Additional observations from a re-analysis of the deposited data

Results flagged for a closer look

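There were 6 members with an ABS response that differed between the cell lines by a test of the difference itself, the OE33 response minus the FLO1 response in shControl cells, in edgeR's quasi-likelihood test over all genes. The differences on the log2 scale were 2.03 for MT-TF, 1.25 for MT-TV, 0.65 for MT-TL1, 0.43 for MT-ND1, 0.76 for MT-ND2 and 0.35 for MT-CYB. MT-TF changed by 0.24 in OE33 and by -1.79 in FLO1, and MT-ND2 by 0.39 in OE33 and by -0.38 in FLO1. Medium differs with the line, and FLO1 shControl ABS replicate 2 stood apart, so these differences are also given in the report without it. The groups had 3 libraries each, too few to test single libraries as outliers.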

How the results depend on the processing

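Of the 76 calls of members over all comparisons, all 76 held under DESeq2, 75 under scaling by nuclear genes, 72 with no filter on low counts and 67 in a fit to the compared groups alone, and 71 with the replicate number as a block. Scaling to mitochondrial mRNA kept 48, lost 27 and turned 1 round, MT-CO1 in OE33 shAPE1#3 against shControl, to -0.074. For tRNA genes that scaling kept 38 and lost 7, and for mRNAs it kept 10, lost 20 and turned 1 round. It divides by the sum of the 13 mRNAs, so a change shared by them is removed by construction. With no filter the number of members called was 8 for FLO1 shAPE1#1 against shControl (5 in the main test), 2 for the FLO1 shAPE1#1 difference in ABS response (0), 4 for ABS in OE33 shAPE1#3 cells (2) and 1 for the OE33 shAPE1#1 difference (0). Scaled to mitochondrial mRNA it was 1 for ABS in OE33 shAPE1#3 cells, 10 for OE33 shAPE1#3 against shControl (17) and 3 for the difference between lines in ABS response (6). In the fit to the compared groups alone it was 3 for ABS in FLO1 shControl cells (6), 8 for ABS in FLO1 shAPE1#1 cells (4), 13 for FLO1 shAPE1#1 against shControl, 0 for ABS in OE33 shAPE1#1 cells (3), 4 for ABS in OE33 shAPE1#3 cells and 3 for the difference between lines. DESeq2 called 1 member for the shAPE1#1 difference in FLO1 and 1 in OE33. Leaving out 1 library gave 4 to 7 members for ABS in FLO1 shControl cells, 3 in shAPE1#1 cells and 4 to 5 in shAPE1#3 cells, 5 in OE33 shControl cells, 1 to 5 in shAPE1#1 cells and 0 to 1 in shAPE1#3 cells. It gave 1 to 5 for shAPE1#1 and 0 for shAPE1#3 against shControl in FLO1, 5 to 10 and 13 to 16 in OE33, 0 to 1 for the shAPE1#1 difference in FLO1 and 0 for the other 3 differences between hairpins, 12 to 15 for OE33 against FLO1 and 5 to 6 for their difference in ABS response. With mitochondrial counts left out of the total, the mRNA share was 3.23% in FLO1 shControl, 3.15% in FLO1 shAPE1#3, 3.82% in OE33 shControl with ABS, 4.11% in OE33 shAPE1#3 and 4.10% in OE33 shAPE1#3 with ABS, and the tRNA share in OE33 shAPE1#3 was 0.0477%. Apart from the shared change that scaling to mitochondrial mRNA removes by construction, the cause of these moves was not tested. Same-numbered libraries were not paired, and 1 of 18 in FLO1 and 7 of 18 in OE33 lay closest to their own number. With the replicate block 5 members were called for ABS in OE33 shControl cells and 3 for ABS in FLO1 shAPE1#1 cells. Depth limits the tRNA genes most, since MT-TQ had as few as 8 counts in a library.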

Other observations

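MT-TF and MT-TV lie on either side of the small subunit rRNA gene, and the mean ratio of their counts ran from 0.775 to 1.28 over the 12 groups. The ratio of the MT-TF to the MT-TV count averaged 0.868 ± 0.081 in FLO1 shControl cells with ABS and 1.11 ± 0.158 in unexposed ones, 0.775 ± 0.00948 in shAPE1#1 cells with ABS and 0.818 ± 0.0427 in unexposed ones, and 0.843 ± 0.0658 in shAPE1#3 cells with ABS and 1.08 ± 0.0411 in unexposed ones (SD, n = 3 each). In OE33 it averaged 1.09 ± 0.111 in shControl cells with ABS and 0.819 ± 0.115 in unexposed ones, 1.28 ± 0.329 in shAPE1#1 cells with ABS and 1.11 ± 0.248 in unexposed ones, and 1.24 ± 0.142 in shAPE1#3 cells with ABS and 0.982 ± 0.0223 in unexposed ones. The mean ratio was thus lower with ABS in the 3 FLO1 pairs and higher with ABS in the 3 OE33 pairs. In shAPE1#1 cells the libraries overlapped in both lines. They ran from 0.764 to 0.782 with ABS and from 0.778 to 0.863 unexposed in FLO1, and from 1.05 to 1.66 and 0.96 to 1.40 in OE33. This pattern of the means was seen in the data and then described, and it has no test.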
